A study of Mus musculus with 4 samples.

Results

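T cells counted as Foxp3-positive by the limits below made up 244 of 32876 immune cells kept from 4 single-cell libraries of mouse liver. A barcode entered with 500 or more UMIs (unique molecular identifiers, each standing for 1 captured molecule), 250 or more detected genes and no more than 10% of UMIs from mitochondrial genes, together with at least 2 UMIs of the T cell receptor genes Cd3e and Cd3g, at least 1 UMI of Foxp3, no UMI of Cd8a or Cd8b1 and at most 1 UMI of the B cell genes Cd79a and Cd79b. The libraries were 1 of genotype GS(+/delta)Hep (55 Foxp3-positive cells), 1 of genotype URI(+/delta)Hep (89 cells) and 2 of WT mice (69 cells in WT 1 and 31 in WT 2). The series title calls the mice knockouts of glutamine synthetase and URI, the genotype names give 1 altered and 1 intact allele, and Hep in those names points to hepatocytes. Every group, WT included, had received tamoxifen for 1 week, and each library pooled 5 mice. CD45+ cells were sorted from digested livers after a Percoll gradient and profiled with fixed-RNA probes, so each level rests on the probes designed for that gene. The promoter driving Cre, the age, the sex and the strain are not given in the sources used here. Hepatocytes are left out by a CD45 sort, so the levels of the altered genes in the sorted cells check nothing.

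Regulatory T cells are CD4 T cells that restrain other lymphocytes, and the forkhead transcription factor Foxp3 defines them. They carry the high-affinity interleukin-2 receptor chain CD25 (Il2ra), with which they compete for interleukin-2, the inhibitory receptor CTLA-4, which removes costimulatory ligands from antigen-presenting cells, and, in large part, the transcription factor Helios (Ikzf2). Resting cells recirculate through blood and lymph nodes with homing receptors such as Ccr7, whereas effector and tissue cells carry receptors such as Klrg1 and the interleukin-33 receptor ST2 (Il1rl1). In the liver they are known for their part in tolerance to antigens from the gut.

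Foxp3 lies on chromosome X, 7573644 to 7595245 (ENSMUSG00000039521), Ctla4 on chromosome 1, 60887000 to 60915832 (ENSMUSG00000026011), Il2ra on chromosome 2, 11642807 to 11693193 (ENSMUSG00000026770), and Ikzf2 on the minus strand of chromosome 1, 69531214 to 69687245 (ENSMUSG00000025997), in GRCm38 with GENCODE vM21. The 300 bases from 250 before to 50 after each annotated start are printed for Foxp3, which has a pair of starts, and for Ctla4 and Il2ra, the 2 markers with an entry in the promoter table. They are RefSeq sequences of GRCm38.p6, plus strand, 5′ to 3′. Capitals mark a match, on either strand, to one of the words searched for factors of this lineage: TGTTTAC (forkhead), GGAAAAT (NFAT) and TTCNNNGAA (STAT5, the factor downstream of the interleukin-2 receptor).
Foxp3, first start, chrX:7579426-7579725: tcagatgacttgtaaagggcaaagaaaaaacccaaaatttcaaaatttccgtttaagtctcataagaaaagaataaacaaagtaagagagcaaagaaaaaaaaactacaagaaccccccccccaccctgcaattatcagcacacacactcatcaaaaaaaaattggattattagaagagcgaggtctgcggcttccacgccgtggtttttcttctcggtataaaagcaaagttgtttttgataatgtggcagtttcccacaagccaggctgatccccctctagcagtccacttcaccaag
Foxp3, second start, chrX:7580233-7580532: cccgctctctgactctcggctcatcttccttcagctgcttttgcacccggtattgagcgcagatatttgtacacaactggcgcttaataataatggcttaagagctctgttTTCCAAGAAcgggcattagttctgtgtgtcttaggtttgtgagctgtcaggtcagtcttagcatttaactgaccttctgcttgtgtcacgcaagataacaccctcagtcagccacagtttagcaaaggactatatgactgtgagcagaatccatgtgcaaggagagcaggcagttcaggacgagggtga
Ctla4, chr1:60908775-60909074: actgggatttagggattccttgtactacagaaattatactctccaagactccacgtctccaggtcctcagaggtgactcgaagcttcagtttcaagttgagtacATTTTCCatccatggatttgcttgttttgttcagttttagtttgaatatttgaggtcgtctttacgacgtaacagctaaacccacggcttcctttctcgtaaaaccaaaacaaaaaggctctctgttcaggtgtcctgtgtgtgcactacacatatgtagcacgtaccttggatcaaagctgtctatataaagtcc
Il2ra, chr2:11642542-11642841: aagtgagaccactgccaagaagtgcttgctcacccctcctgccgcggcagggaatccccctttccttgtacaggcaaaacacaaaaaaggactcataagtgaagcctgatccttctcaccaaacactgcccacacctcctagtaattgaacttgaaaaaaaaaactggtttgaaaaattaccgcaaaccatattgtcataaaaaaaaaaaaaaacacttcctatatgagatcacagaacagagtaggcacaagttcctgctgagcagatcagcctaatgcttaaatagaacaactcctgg
The second Foxp3 window held a STAT5 word 139 bases before the start. The Ctla4 window held the NFAT word on the minus strand, 146 bases before the start. The other 2 windows held none of the 3 words, and none of the 4 held the forkhead word. The matches do not overlap one another. A match of letters is a description and not a site.

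The libraries differed in depth. They held 39451266 UMIs in GS, 51920505 in URI, 37783065 in WT 1 and 24041049 in WT 2, and the kept cells numbered 7846, 9096, 8481 and 7453 with medians of 4448, 4973, 3763 and 2659 UMIs. WT 2 was thus the shallowest, and it also stood apart by its immediate-early genes, as given with the genotypes. No full cell barcode was shared between libraries, while 1480 to 2076 droplet barcodes (the first 16 bases) were shared per pair of libraries, which carried different probe barcodes. The Foxp3-positive cells had medians of 5171 UMIs in GS, 5255 in URI, 4450 in WT 1 and 3847 in WT 2, against 4872, 5645, 4213 and 3118 in Foxp3-negative CD4 T cells of the same libraries. That second set served for comparison: 3197 cells passing the same limits with at least 1 Cd4 UMI, no Foxp3, Cd8a or Cd8b1 UMI, at most 1 Cd79a and Cd79b UMI, and neither the natural killer gene Klrb1c nor the gamma-delta gene Trdc.

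The Foxp3-positive cells carried the markers of regulatory T cells at shares far above those in the Foxp3-negative cells. Ctla4 was detected in 68.9% of the 244 cells, Ikzf2 in 64.8% and Il2ra in 57.4%, against 14.8%, 6.91% and 11.9% of the 3197 Foxp3-negative cells. At least 2 of these 3 markers were detected in 168 of 244 Foxp3-positive cells (68.9%) and in 158 of 3197 Foxp3-negative cells (4.94%). The share of Foxp3-positive cells with at least 2 markers was close in the 4 libraries: 65.5% in GS, 70.8% in URI, 69.6% in WT 1 and 67.7% in WT 2. The corresponding shares of Foxp3-negative cells were 6.91% in GS, 4.15% in URI, 4.24% in WT 1 and 3.86% in WT 2, so the library shares of the 2 cell sets did not overlap. Cd4, which the definition does not require, was detected in 215 of the 244 cells (88.1%). The cells were chosen by Foxp3, and its own values are a description: 1100 UMIs in all, a median of 3 and a maximum of 26 per cell.

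The number of Foxp3 UMIs separated cells with the other markers from cells without them. Just inside the limit, the 76 cells with 1 Foxp3 UMI carried at least 2 of the 3 markers in 30.3% and none of them in 39.5%. The 26 cells with 2 Foxp3 UMIs carried at least 2 markers in 76.9%, and the 142 cells with 3 or more did so in 88.0%, with all 3 markers in 50% of them. Depth moved little along this order, with medians of 4475.5, 4483 and 4964 UMIs per cell. Just outside the other limits, 38 cells with Foxp3 and 1 Cd8a or Cd8b1 UMI carried at least 2 markers in 84.2%, 12 cells with 2 Cd79a and Cd79b UMIs in 66.7%, and 20 cells with 1 Cd3e and Cd3g UMI in 40%. Just inside them, the shares were 84% of 25 cells with 1 Cd79a and Cd79b UMI and 33.3% of 12 cells with 2 Cd3e and Cd3g UMIs. Farther outside lay 80 cells with Foxp3 and 3 or more Cd79a and Cd79b UMIs, 11 in GS, 38 in URI, 21 in WT 1 and 10 in WT 2. They carried at least 2 markers in 68.75% and Cd4 in 86.25%, at a median of 8009 UMIs, and 15% were marked as doublets. The shares of each library given below leave these cells out.

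**Figure D1:**
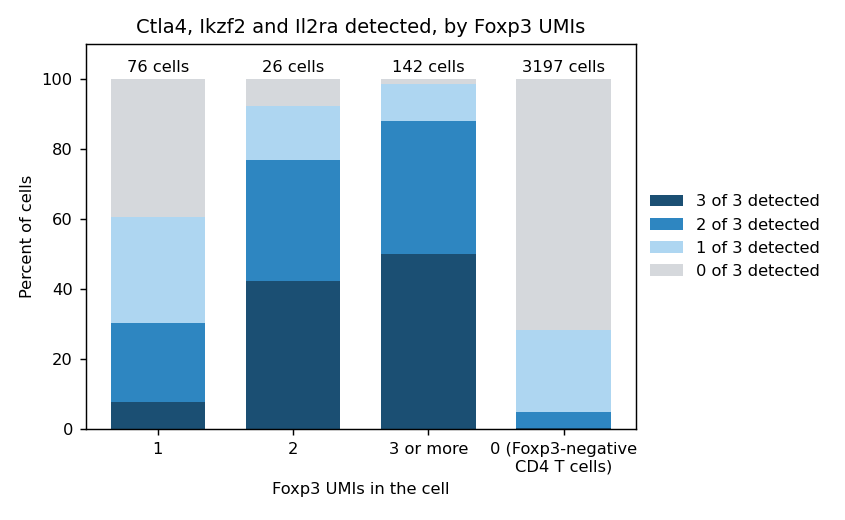
Share of cells (vertical axis, percent) in which 0, 1, 2 or 3 of the markers Ctla4, Ikzf2 and Il2ra were detected, by the number of Foxp3 UMIs in the cell (horizontal axis); cell numbers stand with each bar. Cells with at least 2 markers make up 30.3% at 1 Foxp3 UMI, 76.9% at 2 and 88.0% at 3 or more, against 4.94% of Foxp3-negative CD4 T cells.

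Foxp3 UMIs were rare in cell types that should lack the gene. A Foxp3 UMI was found in 0 of 598 natural killer and ILC1 cells of GS, 1 of 630 of URI, 0 of 797 of WT 1 and 0 of 531 of WT 2, and a count of 0 there, read as a limit of 3 counts of the total, allows shares of up to 0.502% in GS, 0.376% in WT 1 and 0.565% in WT 2. Among B cells the shares were 0.297% in URI and 0.341% in WT 2, with 0 of 1113 cells in GS and 0 of 1604 in WT 1, which allow up to 0.270% and 0.187%. These cells had medians of 2287 to 4342 UMIs (B cells) and 2993 to 5247 UMIs (natural killer and ILC1 cells). In CD4 T cells gated without regard to Foxp3, the shares were 4.08% in GS, 7.12% in URI, 6.67% in WT 1 and 4.28% in WT 2, with medians of 4875, 5628, 4231 and 3155 UMIs per cell. Barcodes under 100 UMIs, a measure of free RNA, held Foxp3 at 11.8 to 21.1 CPM (counts scaled to a common total for each sum of cells). Intervals and floors here cover counting error only.

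Across the genome, the Foxp3-positive cells differed from the Foxp3-negative CD4 T cells of the same libraries in the receptors and regulators of the regulatory T cell lineage, in effector and tissue genes, which were higher, and in genes of resting and naive T cells, which were lower. UMIs were summed per library and cell set, and 9351 genes were tested with edgeR with the library as a block. At an adjusted p under 0.05, which defines a called gene, 484 genes were higher in Foxp3-positive cells (5.18% of those tested) and 218 were lower (2.33%), 7.51% in all. The median log2 difference over all tested genes was -0.01. Without the URI library, 165 genes were higher and 73 lower, and 132 were lower without GS and 131 without WT 1. The fit without the library block called 225 genes higher and 75 lower, and in cells thinned to 1500 UMIs each the counts were 243 and 116. Levels are given in CPM and are compared within a gene only.

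Of the 20 genes of the core regulatory T cell list, Foxp3 itself was left out as a gene of the definition, and 18 of the other 19 were higher and none lower, with a median log2 difference of 2.51. Ikzf2 had 524, 500.3, 505 and 569.8 CPM in Foxp3-positive cells of GS, URI, WT 1 and WT 2, against 33.8, 18.5, 24.2 and 31.3 CPM in Foxp3-negative cells. The lowest Foxp3-positive library lay far above the highest Foxp3-negative one, and the log2 difference was 4.36 (SE 0.13, edgeR adjusted p = 8.00e-12). Ctla4 had 804, 783, 724 and 591 CPM in Foxp3-positive cells of GS, URI, WT 1 and WT 2, against 125, 85.5, 54.4 and 82.2 CPM in Foxp3-negative cells. Again the sets did not overlap (log2 difference 3.15, SE 0.14, edgeR adjusted p = 9.15e-10). Il2ra had 625, 404, 531 and 267 CPM in Foxp3-positive cells of GS, URI, WT 1 and WT 2, against 66.5, 52.2, 70.3 and 91.1 CPM in Foxp3-negative cells. WT 2 was lowest among the Foxp3-positive sums and highest among the Foxp3-negative ones, and the log2 difference was 2.83 (SE 0.17, edgeR adjusted p = 7.40e-08).

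The size of the Il2ra difference depended on which Foxp3-negative cells it was set against. Foxp3-negative cells with a UMI of Zbtb16 or Zfp683, transcription factors of innate-like and tissue-resident lymphocytes, held Il2ra at 224 CPM in GS, 168 in URI, 218 in WT 1 and 235 in WT 2. The Foxp3-negative cells without either held it at 22.5, 16.9, 31.6 and 26.5 CPM in the same libraries. With cells of both sets restricted to no Zbtb16 and no Zfp683 UMI, the Il2ra log2 difference was 4.45, and with cells of both sets restricted to no Ccr7 UMI it was 1.42; both remained called. These restrictions were chosen after the data were seen.

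Among the remaining members of that list, the largest difference was in Lrrc32, which encodes GARP, the protein that holds latent TGF-beta at the surface of activated regulatory T cells (chromosome 7, 98489283 to 98502181). It had 195, 305, 127 and 288 CPM in Foxp3-positive cells of GS, URI, WT 1 and WT 2, against 1.45, 7.20, 3.77 and 4.73 CPM in Foxp3-negative cells. The log2 difference was 5.75 (SE 0.25, edgeR adjusted p = 9.15e-10), and Lrrc32 was detected in 91 Foxp3-positive cells (37.3%) and in 0.719% of Foxp3-negative cells. Nrp1, the semaphorin receptor neuropilin-1, averaged 131 ± 48.7 CPM in Foxp3-positive and 20.5 ± 1.78 CPM in Foxp3-negative cells (SD, n = 4 libraries each). Ikzf4, a relative of Helios, averaged 68.5 ± 22.3 CPM in Foxp3-positive and 11.2 ± 1.62 CPM in Foxp3-negative cells. Izumo1r, which encodes folate receptor 4, was at 324 ± 48.9 CPM in Foxp3-positive and 100.3 ± 13.2 CPM in Foxp3-negative cells.

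The integrin chain Itgae (CD103) rose with a wide spread. Its levels were 138, 132, 129.8 and 21.1 CPM in Foxp3-positive cells of GS, URI, WT 1 and WT 2, against 1.66, 2.34, 5.38 and 15.96 CPM in Foxp3-negative cells (log2 difference 4.66, SE 0.58, edgeR adjusted p = 7.36e-05). In WT 2 the 2 sets were close. Il2rb, the beta chain shared by the interleukin-2 and interleukin-15 receptors, was the member not called: it averaged 865 ± 97.7 CPM in Foxp3-positive and 855 ± 142 CPM in Foxp3-negative cells (log2 difference 0.08, SE 0.11, edgeR adjusted p = 0.767).

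The TNF receptor superfamily, whose members costimulate regulatory T cells, and the NF-kappaB pathway below it were higher in part: 10 of 17 genes of that list were called higher and 1 lower, with a median log2 difference of 0.40. Tnfrsf4 (OX40) had 198, 185, 147 and 134 CPM in Foxp3-positive cells of GS, URI, WT 1 and WT 2, against 23.4, 17.8, 16.7 and 33.1 CPM in Foxp3-negative cells. The log2 difference was 3.03 (SE 0.20), and the lowest Foxp3-positive library was above the highest Foxp3-negative one. Tnfrsf9 (4-1BB), Tnfrsf1b (TNFR2) and Tnfrsf18 (GITR) had log2 differences of 2.43, 1.55 and 1.06. The adaptor Traf1 averaged 455 ± 74.1 CPM in Foxp3-positive and 244 ± 70.2 CPM in Foxp3-negative cells, and the subunits Relb, Nfkb2 and Nfkb1 had log2 differences of 0.78, 0.50 and 0.39. Map3k14, the kinase NIK of the non-canonical branch, was the gene called lower, at 131 ± 22.9 CPM in Foxp3-positive and 188 ± 22.2 CPM in Foxp3-negative cells. Without URI, 5 genes of this list were higher and none lower. Map3k14 lost its call without any 1 of the 4 libraries, Nfkb1 and Nfkb2 without GS or URI, and Relb without URI. Nfkb1, Nfkb2, Relb and Birc3, the last also called higher in the main fit, were not called in cells thinned to 1500 UMIs. Nor were they called with both sets restricted to no Ccr7 UMI, or without the library block. Tnfrsf4, Tnfrsf9 and Tnfrsf18 were already counted in the core list.

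Of the 18 genes of the interleukin-2 and STAT5 list, 6 were called higher, 1 lower and 11 neither. The receptor chain Il2ra is described above, the shared gamma chain Il2rg averaged 926 ± 70.1 CPM in Foxp3-positive and 891 ± 111 CPM in Foxp3-negative cells and was not called, and the receptor kinase Jak3 had a log2 difference of 0.48. Among STAT5 targets, Cish, a feedback inhibitor, averaged 183 ± 51.9 CPM in Foxp3-positive and 77.4 ± 8.48 CPM in Foxp3-negative cells (log2 difference 1.31). Socs2 and the kinase Pim1 had log2 differences of 0.77 and 0.62. Bcl2, the survival gene that is also on the resting list, was lower (log2 difference -0.62). Without URI, 3 genes of the list were called higher. Jak3 lost its call there, and Socs2 without GS, URI or WT 1.

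**Figure D2:**
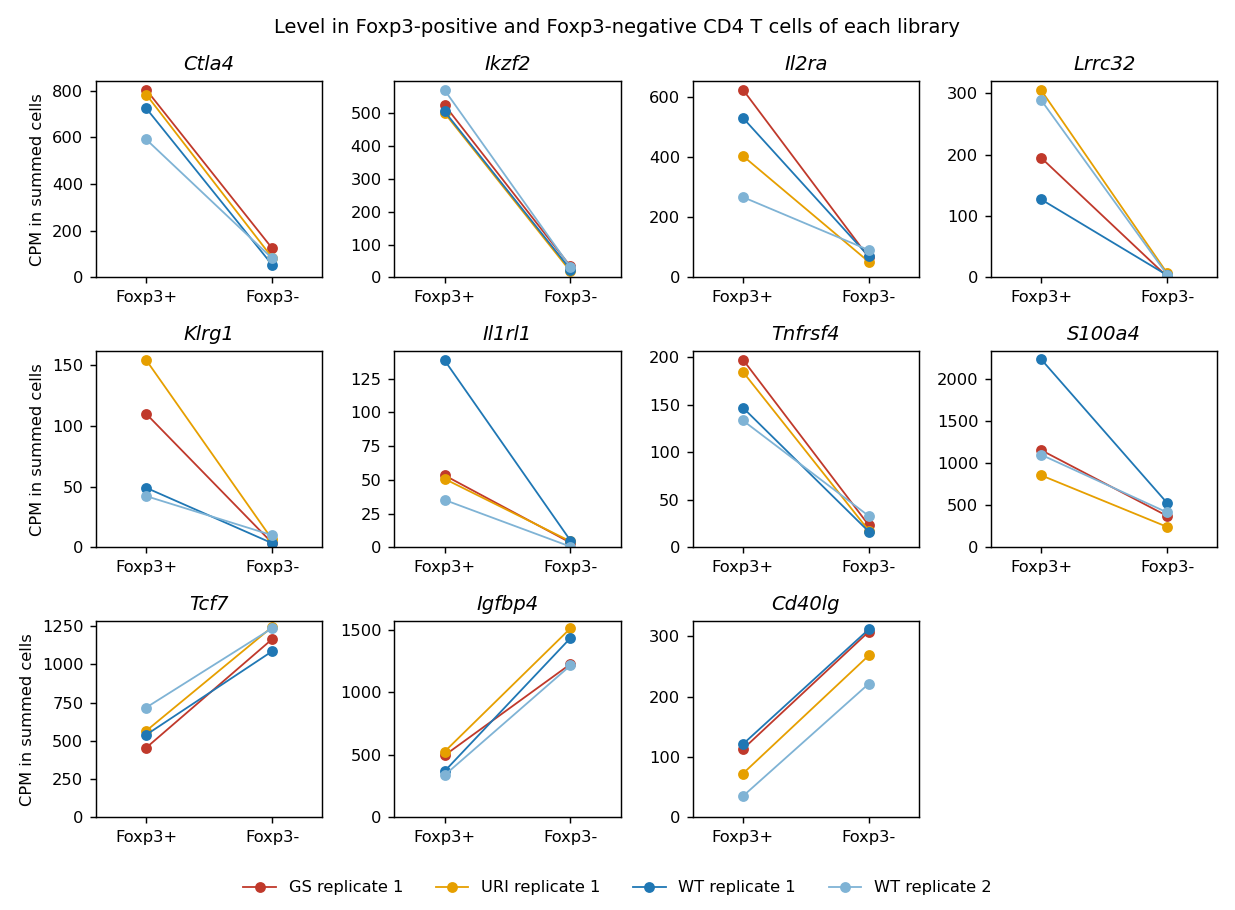
Level of 11 genes (vertical axes, CPM, each panel with its own scale) in the summed Foxp3-positive cells, drawn first, and Foxp3-negative CD4 T cells of each of the 4 libraries, which are the points. Ikzf2, Ctla4, Il2ra, Lrrc32, Klrg1, Il1rl1, Tnfrsf4 and S100a4 are higher in Foxp3-positive cells in every library, and Tcf7, Igfbp4 and Cd40lg are lower in every library.

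Suppressive mediators were called higher in 8 of the 15 genes tested from their list of 19, none was lower, and the median log2 difference was 0.87. Besides Ctla4 and Lrrc32, the CD73 ectoenzyme gene Nt5e, which makes adenosine, had 245, 214, 156 and 176 CPM in Foxp3-positive cells of GS, URI, WT 1 and WT 2, against 80.2, 68.4, 77.3 and 71.0 CPM in Foxp3-negative cells (log2 difference 1.46, SE 0.14, edgeR adjusted p = 6.08e-06). The sets did not overlap. Tgfb1 averaged 316 ± 72.6 CPM in Foxp3-positive and 242 ± 63.7 CPM in Foxp3-negative cells (log2 difference 0.44). Ebi3, an interleukin-35 chain, and Cd274, which encodes PD-L1, had log2 differences of 1.76 and 0.68. The interleukin-10 gene Il10 was called higher but rested on few cells: 44 UMIs in 7 Foxp3-positive cells, of which 24 lay in 1 GS cell and none in WT 2. Itgb8, the integrin chain that frees TGF-beta from its latent form, had 15 UMIs in 11 Foxp3-positive cells and no UMI in the Foxp3-negative cells. It was called, but without any 1 of the 4 libraries it fell under the low-count filter and was not tested. Entpd1 (CD39), Gzmb and Fgl2 were not called, with log2 differences of 0.87, 0.82 and 0.60. Leaving out GS or URI left 4 and 3 genes of the list called higher. Tgfb1 and Il10 lost their calls in both cases, Ebi3 also without WT 1, and Cd274 without URI or WT 1.

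Along the TGF-beta pathway as a whole, 5 of 13 genes were called higher and 2 lower. Of those called higher, Tgfb1, Itgb8, Itgae and Lrrc32 were already counted in the core or suppressive lists. The integrin chain Itgav, which pairs with Itgb8, averaged 107 ± 22.4 CPM in Foxp3-positive and 54.4 ± 7.18 CPM in Foxp3-negative cells (log2 difference 1.01). The receptor Tgfbr2 averaged 372 ± 42.3 CPM in Foxp3-positive and 632 ± 54.8 CPM in Foxp3-negative cells (log2 difference -0.75). The inhibitory Smad7 was also lower, with a log2 difference of -0.79. Without GS or without URI, 3 genes of the list were called higher.

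Genes of effector and tissue regulatory T cells were called higher in 19 of the 27 tested from a list of 30, and lower in 2, with a median log2 difference of 1.08. Klrg1, an inhibitory receptor for cadherins (chromosome 6, 122270596 to 122282882), had 109.9, 154, 49.1 and 42.2 CPM in Foxp3-positive cells of GS, URI, WT 1 and WT 2, against 3.73, 6.66, 3.50 and 10.1 CPM in Foxp3-negative cells (log2 difference 4.08, SE 0.39, edgeR adjusted p = 6.08e-06). Both WT libraries were below both libraries of altered genotype, and every Foxp3-positive sum was above every Foxp3-negative one. Il1rl1, the ST2 chain of the interleukin-33 receptor (chromosome 1, 40429570 to 40465415), had 53.4, 50.8, 138 and 35.2 CPM in Foxp3-positive cells of GS, URI, WT 1 and WT 2, against 3.52, 4.50, 5.11 and 0.591 CPM in Foxp3-negative cells (log2 difference 4.20, SE 0.40). WT 1 was highest. S100a4, a calcium-binding protein of motile cells, had 1152, 854, 2227 and 1097 CPM in Foxp3-positive cells of GS, URI, WT 1 and WT 2, against 373, 244, 527 and 415 CPM in Foxp3-negative cells (log2 difference 1.78, SE 0.10).

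Several transcription factors of this list were higher as well. Maf, which promotes Il10, averaged 526 ± 57.1 CPM in Foxp3-positive and 246 ± 101 CPM in Foxp3-negative cells (log2 difference 1.23). Prdm1 (Blimp-1), Irf4, Rora and Batf had log2 differences of 1.48, 0.85, 0.79 and 0.67, all called, while Gata3 was not called at 0.33 (edgeR adjusted p = 0.0935). Areg, the tissue-repair ligand amphiregulin, was called (log2 difference 3.39, SE 0.62) from 31 UMIs in 9 cells, with no UMI in WT 1. The genes called lower were Id2, an inhibitor of E proteins (361 ± 63.5 CPM in Foxp3-positive and 717 ± 28.3 CPM in Foxp3-negative cells), and Cxcr6, a receptor of liver-resident lymphocytes (log2 difference -1.36). Without URI, 12 genes of the list were called higher. Prdm1, Irf4 and Batf lost their calls without GS or without URI, Irf4 also without WT 1, and Rora without URI; Areg was not called without cells marked as doublets.

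Genes of resting and recirculating T cells were called lower in 10 of 14, and none was higher, with a median log2 difference of -0.65. Igfbp4, a gene of naive T cells, had 496, 526, 369 and 338 CPM in Foxp3-positive cells of GS, URI, WT 1 and WT 2, against 1226, 1512, 1434 and 1214 CPM in Foxp3-negative cells (log2 difference -1.60, SE 0.10, edgeR adjusted p = 1.17e-07). Tcf7, which encodes the naive and memory factor TCF-1, had 455, 566, 539.6 and 718 CPM in Foxp3-positive cells of GS, URI, WT 1 and WT 2, against 1164, 1243, 1085 and 1235 CPM in Foxp3-negative cells (log2 difference -1.05, SE 0.09). In both genes the highest Foxp3-positive sum was below the lowest Foxp3-negative one. Satb1, Lef1 and the lymph-node homing receptor Ccr7 had log2 differences of -0.99, -0.90 and -1.03. Klf2 and S1pr1, which act in exit from lymph nodes, and Klf3 were not called.

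The resting genes changed where both sets were restricted. Where both sets were restricted to cells without a Ccr7 UMI, 5 of 13 resting genes were still called lower, but S1pr1 and Klf2 were among those called higher (log2 differences 0.66 and 0.46). The core list then had 15 genes higher and 1, Il2rb, lower (log2 difference -1.09), and the effector list 13 higher and 3 lower. With cells of both sets restricted to no Zbtb16 and no Zfp683 UMI, 11 resting genes were lower and none higher. The core list then had 19 of 19 genes higher, with Il2rb among them, and the effector list 22 higher and 2 lower.

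**Figure D3:**
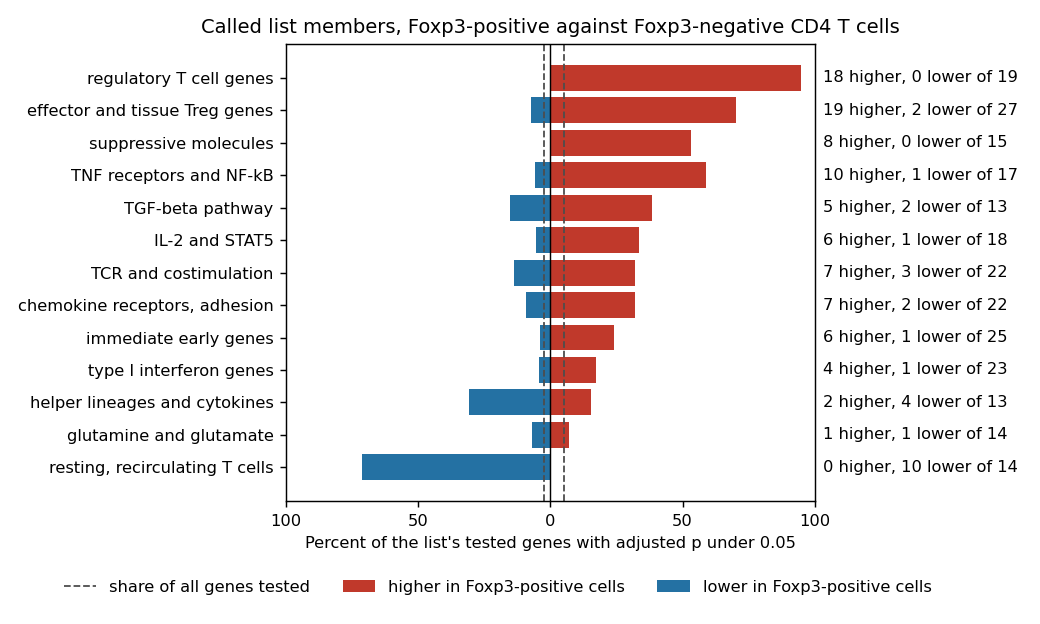
Share of the tested genes of each list (horizontal axis, percent) called higher or lower in Foxp3-positive than in Foxp3-negative CD4 T cells at an edgeR adjusted p under 0.05; dashed lines mark the shares over all 9351 genes, 5.18% higher and 2.33% lower. The core list (18 of 19 higher), the effector list (19 of 27 higher) and the resting list (10 of 14 lower) lie farthest from those lines. The lists share some genes.

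Helper T cell genes were lower in part, with 4 of 13 called lower and 2 higher. Cd40lg, the ligand through which helper cells activate B cells, had 113, 72.5, 121 and 35.2 CPM in Foxp3-positive cells of GS, URI, WT 1 and WT 2, against 307, 268, 311 and 221 CPM in Foxp3-negative cells (log2 difference -1.63, SE 0.15, edgeR adjusted p = 3.80e-06). The cytokine genes Il4 and Ifng and the Th1 factor Tbx21 had log2 differences of -2.39, -1.06 and -0.77. Il4 stood at 6.52 ± 2.37 CPM in Foxp3-positive and 34.8 ± 9.04 CPM in Foxp3-negative cells. The follicular receptor Cxcr5 and the chemokine receptor Ccr6 were called higher (log2 differences 1.37 and 1.04). Neither Cxcr5 nor Ccr6 was called without URI, Cxcr5 also not without GS, Ccr6 not without WT 1, and Tbx21 not without URI, WT 1 or WT 2. With cells of both sets restricted to no Zbtb16 and no Zfp683 UMI, 1 of 11 tested genes, Cd40lg, was called lower. Under that restriction Il4, Ifng and Tbx21 were not called, and 4 genes were called higher: Gata3, Cxcr3, Cxcr5 and Ccr6.

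Of the migration list, 7 of 22 tested genes were called higher and 2 lower. Ccr4, a receptor for skin and activated-tissue chemokines, had 160.1, 172, 309 and 204 CPM in Foxp3-positive cells of GS, URI, WT 1 and WT 2, against 75.4, 39.2, 92.9 and 91.6 CPM in Foxp3-negative cells, with no overlap (log2 difference 1.62). Ccr2 and the gut-homing integrin chain Itgb7 had log2 differences of 1.15 and 0.49. Cxcr3, the Th1-associated receptor, averaged 174 ± 25.2 CPM in Foxp3-positive and 186 ± 26.9 CPM in Foxp3-negative cells and was not called. With cells of both sets restricted to no Zbtb16 and no Zfp683 UMI it was called higher, and with no Ccr7 UMI lower. Without URI, 4 genes of the list were called higher.

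T cell receptor and costimulation genes moved both ways, with 7 of 22 called higher and 3 lower. The surface regulators Cd5 and Cd2 had log2 differences of 0.54 and 0.55, and the nuclear factors Ikzf3 (Aiolos) and Tox of 0.93 and 0.83. Ikzf1 (Ikaros), called lower, averaged 671 ± 90.2 CPM in Foxp3-positive and 1214 ± 88.0 CPM in Foxp3-negative cells. Among the Ikaros family members named here, Ikzf2, Ikzf3 and Ikzf4 were thus higher and Ikzf1 lower. Without URI, 4 genes of the list were called higher and 2 lower.

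By the naming rule, the 12 largest rises and 12 largest falls among called genes at 20 CPM or more and with the same direction in 4 of 4 libraries also included genes of no list. Rln3, a relaxin-family peptide gene, had 87.9, 59.8, 72.1 and 42.2 CPM in Foxp3-positive cells of GS, URI, WT 1 and WT 2, against 3.52, 1.80, 3.23 and 0.591 CPM in Foxp3-negative cells (log2 difference 4.83, SE 0.40, edgeR adjusted p = 1.93e-06). Dst, which encodes the cytolinker dystonin, Muc3a, a membrane mucin gene, and Lamc1, a laminin chain gene, had log2 differences of 4.16, 3.10 and 3.00. Cd83, a surface protein of activated cells already counted in the effector list, was at 37.2 ± 10.9 CPM in Foxp3-positive and 3.75 ± 1.89 CPM in Foxp3-negative cells. Among the falls, Pdlim4 and Tgfbr3, the betaglycan co-receptor of TGF-beta, averaged 32.6 ± 14.4 and 29.7 ± 10.7 CPM in Foxp3-positive cells and 149 ± 48.8 and 133 ± 19.5 CPM in Foxp3-negative cells. Zfp683 (Hobit), Tdrp, Hs3st3b1, Atp8b4, Vipr1 and Dapl1, the last already counted in the resting list, had log2 differences between -1.88 and -1.56. Chil3, a chitinase-like gene of myeloid cells, had a log2 difference of -3.14, but 233 CPM of it lay in the Foxp3-negative cells of URI, and without cells of 50 or more UMIs of the neutrophil, MHC class II or cell cycle lists its log2 difference was -0.31 and not called (edgeR adjusted p = 0.814). It was also not called without URI (log2 difference -2.25, edgeR adjusted p = 0.0748).

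Markers of other cell types were present at low or uneven levels beside these results. The CD8 genes are at 0 by definition. Neutrophil genes summed to 4715, 556, 124 and 7212 CPM in Foxp3-positive cells of GS, URI, WT 1 and WT 2, against 2599, 5966, 2378 and 1781 CPM in Foxp3-negative cells, and 1 cell held 759 of 1503 of these UMIs in GS and 901 of 1026 in WT 2. Of the 9 neutrophil genes tested, 2 (Ngp and Camp) were called lower. Of the 12-gene monocyte and macrophage list, Clec4f, C1qb and C1qc had 0 UMIs in all 8 sums. The list summed to 226 to 527 CPM in Foxp3-positive and 278 to 482 CPM in Foxp3-negative cells. Lyz2 was detected in 13.1% of Foxp3-positive and 15.1% of Foxp3-negative cells, and Cd68 in 12.7% and 14.4%. Of the 5 genes tested, Ccr2 was called higher and Ly6c2 lower, the latter not without GS, URI or WT 1. The dendritic list summed to at most 58.0 CPM in Foxp3-positive and 25.3 CPM in Foxp3-negative cells. Hepatocyte genes summed to 34.6 to 436 CPM in Foxp3-positive and 93.9 to 113 CPM in Foxp3-negative cells, with 3 genes tested and none called. Gamma-delta T cell genes had none of 3 called, with sums of 70.3 to 144 CPM in Foxp3-positive and 31.9 to 77.8 CPM in Foxp3-negative cells. NKT genes had 2 of 4 called lower (Zbtb16 and Cxcr6), and natural killer genes 1 of 5 higher (Klrb1b). Ngp and Klrb1b were not called without URI, where Camp was not tested. The natural killer and gamma-delta comparisons are unequal by construction, since Klrb1c and Trdc cells were left out of the Foxp3-negative set only. The part of these cells in the results above was not tested.

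The B cell gene Ighm, the immunoglobulin M heavy chain, was called higher in Foxp3-positive cells. It had 917, 1155, 1645 and 992 CPM in Foxp3-positive cells of GS, URI, WT 1 and WT 2, against 597, 492, 706 and 492 CPM in Foxp3-negative cells (log2 difference 1.06, SE 0.10, edgeR adjusted p = 6.08e-06). It was detected in 83.6% of Foxp3-positive and 76.1% of Foxp3-negative cells. The other 9 B cell genes were low, and none of those tested was called, but their sum was also higher in Foxp3-positive cells in each library. Together they had 53.3, 88.8, 72.1 and 162 CPM in Foxp3-positive cells of GS, URI, WT 1 and WT 2, against 48.5, 57.0, 43.6 and 104 CPM in Foxp3-negative cells. With no Cd79a or Cd79b UMI allowed in either set, the Ighm log2 difference was 1.05 and still called.

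Some gene groups were decided by few cells, and others had few called genes. MHC class II genes were called higher in 5 of 11, but 1 URI cell held 1068 of the 1582 UMIs of that library and 1 WT 2 cell held 632 of 765, and without URI none was called and without WT 2, 2 were. Cell cycle genes were called higher in 5 of 22, with 606 of the 1089 UMIs of WT 1 in 1 cell, and none was called without WT 1 or without URI. Without cells of 50 or more UMIs of these lists or the neutrophil list, 1 MHC class II gene (H2-Ob) and no cell cycle gene was called higher. Interferon genes were called higher in 4 of 23 (Ifi27l2a, Usp18, Stat2 and Ifi209) and lower in 1, with 2, 2 and 1 higher without GS, URI and WT 1. Immediate-early genes, which rise within minutes of stimulation, were called higher in 6 of 25 and lower in 1 (3, 1 and 3 higher without GS, URI and WT 2), and in neither direction where both sets lacked Ccr7. Of 14 glutamine and glutamate genes, 1 was called higher and 1 lower, beside 5.18% and 2.33% of all tested genes, so the list is not read as changed. Glud1 (glutamate dehydrogenase) was higher at 341 ± 44.9 CPM in Foxp3-positive and 266 ± 11.8 CPM in Foxp3-negative cells. Slc38a2 (a glutamine transporter) was lower, and Glul (the glutamine-making enzyme) was not called. Glud1 and Slc38a2 lost their calls without URI or WT 1, Ifi209 without WT 1, Usp18 without GS, URI or WT 1, Stat2 without any 1 library, and H2-Ob without GS or URI.

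The shares of promoters that hold each word were counted without a test, and all 3 were higher among genes called lower than among all tested genes. The forkhead word lay in 3.39% of 443 promoters of genes called higher, 4.49% of 245 promoters of genes called lower, 2.68% of promoters of all tested genes and 3.65% of the 32851 promoters in the table. The NFAT word lay in 2.93%, 4.08%, 3.24% and 4.82% of these sets, and the STAT5 word in 7.90%, 10.6%, 6.89% and 8.30%. The STAT5 word of the second Foxp3 start and the NFAT word of Ctla4 are therefore of kinds found in 8.30% and 4.82% of all windows of that length.

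Within the Foxp3-positive cells, resting and effector genes varied against each other. Each of 237 cells with at least 1500 UMIs was thinned to 1500 UMIs, which leaves out 7. In these cells the resting list had medians of 10, 14, 13 and 16.5 UMIs per cell in GS, URI, WT 1 and WT 2, against 20, 22, 23 and 20 UMIs in Foxp3-negative cells. The effector list had medians of 9, 6, 8 and 6.5 UMIs per Foxp3-positive cell in GS, URI, WT 1 and WT 2, against 3, 3, 3 and 4 UMIs per Foxp3-negative cell. Effector UMIs outnumbered resting UMIs in 51.9% of the Foxp3-positive cells of GS (27 of 52), 37.9% of URI (33 of 87), 50.0% of WT 1 (34 of 68) and 33.3% of WT 2 (10 of 30). Across cells the counts of the 2 lists had Pearson r of -0.55 in GS, -0.53 in URI, -0.51 in WT 1 and -0.62 in WT 2, as a description, since cells of a library share their pool and their fixed total of UMIs.

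**Figure D4:**
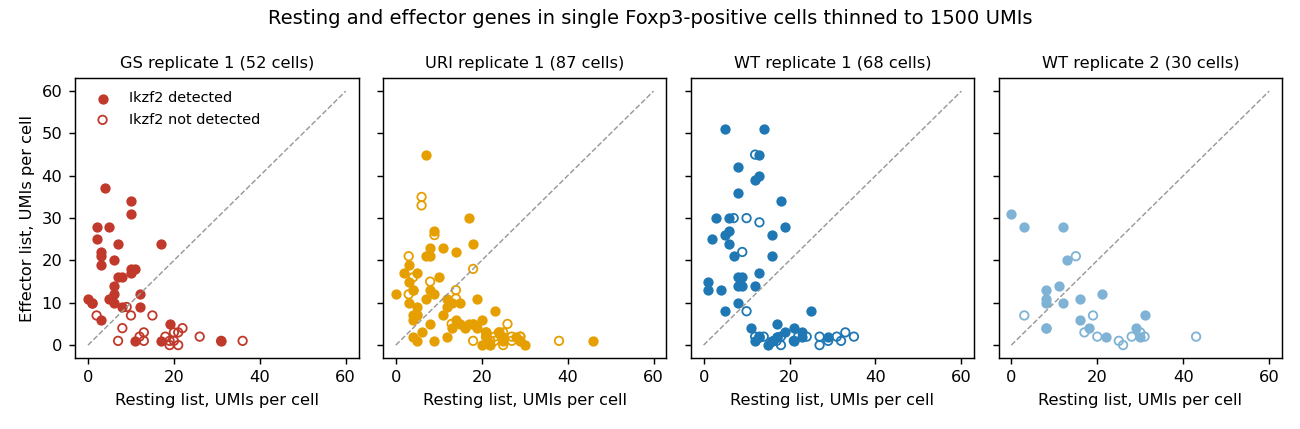
UMIs of the effector and of the resting gene lists in each Foxp3-positive cell thinned to 1500 UMIs, in 1 panel per library; filled points are cells with Ikzf2 detected and the dashed line marks equal counts. Cells spread from many resting and few effector UMIs to the reverse in all 4 libraries, with Pearson r between -0.51 and -0.62.

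Cells with Helios held more of the effector genes and fewer of the resting genes. Cells were grouped by a UMI of Ikzf2 at full depth and the other genes were read after thinning, so that the group with Ikzf2 was also deeper before thinning, at a median of 5207 UMIs per cell against 4456 without. S100a4 was detected in 47.1% of the 155 with Ikzf2 and 23.2% of the 82 without, Itgb1 (the beta-1 integrin chain) in 50.3% and 23.2%, Tnfrsf1b in 35.5% and 12.2%, Lrrc32 in 28.4% and 8.54%, and Ctla4 in 61.3% and 25.6%. In the reverse direction Igfbp4 was detected in 14.8% of cells with Ikzf2 and 42.7% of those without, Bcl2 in 32.9% and 61.0%, Tcf7 in 36.8% and 62.2%, and Ccr7 in 19.4% and 40.2%. Foxp3 itself was detected after thinning in 76.1% of cells with Ikzf2 and 58.5% of those without, so the undetected group also held more cells at the edge of the definition. With Ikzf2 itself read after thinning, a grouping chosen after the data were seen, S100a4 was detected in 46.3% of the 108 cells with Ikzf2 and 32.6% of the 129 without, Itgb1 in 50% and 33.3%, and Tcf7 in 34.3% and 55.0%.

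The tissue receptors marked a small group. Grouped in the same way, Klrg1 was detected at full depth in 25 of the 237 cells (median 5207 UMIs, against 4666 in the others), and S100a4 in 88% of these against 33.0% of the other 212, S100a11 in 84% against 34.0%, Lef1 in 12% against 55.2%, and Ccr7 in 0 of 25 cells against 29.7%, where 0 of 25 allows a share of up to 12%. Il1rl1 was detected at full depth in 38 cells (median 5548.5 UMIs, against 4648 in the others), with S100a11 in 89.5% of these against 29.6% of the other 199 and Ccr7 in 2.63% against 31.2%. With both receptors read after thinning, S100a4 was detected in 15 of 17 cells with Klrg1 against 35% of the other 220, and in 14 of 16 cells with Il1rl1 against 35.3% of the other 221. The splits by Ikzf2, Klrg1 and Il1rl1 are descriptions with no test, since cells of a library are not replicates.

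The share of Foxp3-positive cells in each library was compared next, as a question on whether the hepatocyte genotype went with their abundance. They made up 0.701% of kept cells in GS (95% exact interval 0.529 to 0.911%), 0.978% in URI (0.786 to 1.20%), 0.814% in WT 1 (0.634 to 1.03%) and 0.416% in WT 2 (0.283 to 0.590%). Of the CD4-lineage cells, Foxp3-positive cells with Cd4 were 4.95% in GS (49 of 990, interval 3.68 to 6.49%), 7.76% in URI (79 of 1018, 6.19 to 9.58%), 7.20% in WT 1 (64 of 889, 5.59 to 9.10%) and 4.47% in WT 2 (23 of 515, 2.85 to 6.63%). GS lay between the 2 WT libraries on both scales. URI was above both, but its interval overlapped that of WT 1, and the 2 WT libraries differed by more from each other than either URI or GS did from the nearer WT library. The CD4-lineage scale is unequal, since cells with Klrb1c or Trdc were left out of the Foxp3-negative cells only. With such cells left out of both sets, the shares were 4.08% in GS, 7.12% in URI, 6.67% in WT 1 and 4.28% in WT 2. By those shares GS was below both WT libraries, so its place relative to WT 2 depends on the limits. The shares were not tested, since an exact permutation test of 1 library against 2 cannot give a p below 0.333. After thinning to 1500 UMIs the shares of CD4-lineage cells were 2.42% in GS, 5.06% in URI, 5.34% in WT 1 and 1.82% in WT 2, so URI was then below WT 1.

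No gene was called between genotypes within the Foxp3-positive cells. For GS against WT and for URI against WT, edgeR tested 7586 genes each and called 0 (0%), with 73 and 57 genes at an unadjusted p under 0.05, and DESeq2 called 0 and 0. Whether Foxp3-positive cells differed from Foxp3-negative cells more in GS or URI than in WT was tested with an interaction over 9867 genes, again with 0 called (0%) for GS and 0 (0%) for URI. There 205 and 147 genes had an unadjusted p under 0.05, and DESeq2 called 0 and 1. In the first pair of tests the spread between libraries comes from the 2 WT libraries alone, with 1 residual degree of freedom. On simulated data the fit of GS against WT recovered few of the changes put in, so 0 calls do not show that the genotypes are alike. GS and URI share the WT libraries as their controls.

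None of the lineage genes was called between genotypes. Of the 19 core genes tested, 10 lay above and 4 below both WT libraries in GS, and 12 above and 2 below in URI; over all tested genes 31.4% lay above and 24% below in GS, and 29.5% above and 22.7% below in URI. Ctla4 had log2 differences from WT of 0.23 (SE 0.46) in GS and 0.21 (SE 0.46) in URI, and Ikzf2 of -0.09 and -0.15. Il2ra had 0.58 (SE 0.50) in GS and -0.03 (SE 0.51) in URI. Each edgeR adjusted p was 1.00. The summed core list stood at 4988 CPM in GS and 5228 CPM in URI, against 4562 CPM in WT 1 and 4059 CPM in WT 2.

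The suppressive list had 6 of 11 tested genes above and 1 below both WT libraries in GS, and 7 above and none below in URI. Beside this list and the effector list stand the shares over all tested genes. Those were 31.4% above and 24% below in GS, and 29.5% above and 22.7% below in URI. The effector list had 10 of 25 above and 4 below in GS and 9 above and 6 below in URI, and its sums were 8048 CPM in GS and 7087 CPM in URI, against 10396 CPM in WT 1 and 6809 CPM in WT 2. The resting list summed to 7480 CPM in GS and 8999.9 CPM in URI, against 9005 CPM in WT 1 and 10045 CPM in WT 2. The 2 WT libraries differed more on the effector list than either altered genotype did from both. Klrg1 had 35 UMIs in GS and 85 in URI, against 17 in WT 1 and 6 in WT 2, with log2 differences of 1.19 (SE 0.55) in GS and 1.69 (SE 0.52) in URI, not called. Immediate-early genes summed to 22918 CPM in GS and 24721 CPM in URI, against 15174 CPM in WT 1 and 37740.0 CPM in WT 2, a spread between the WT libraries that the altered genotypes fell within.

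**Figure D5:**
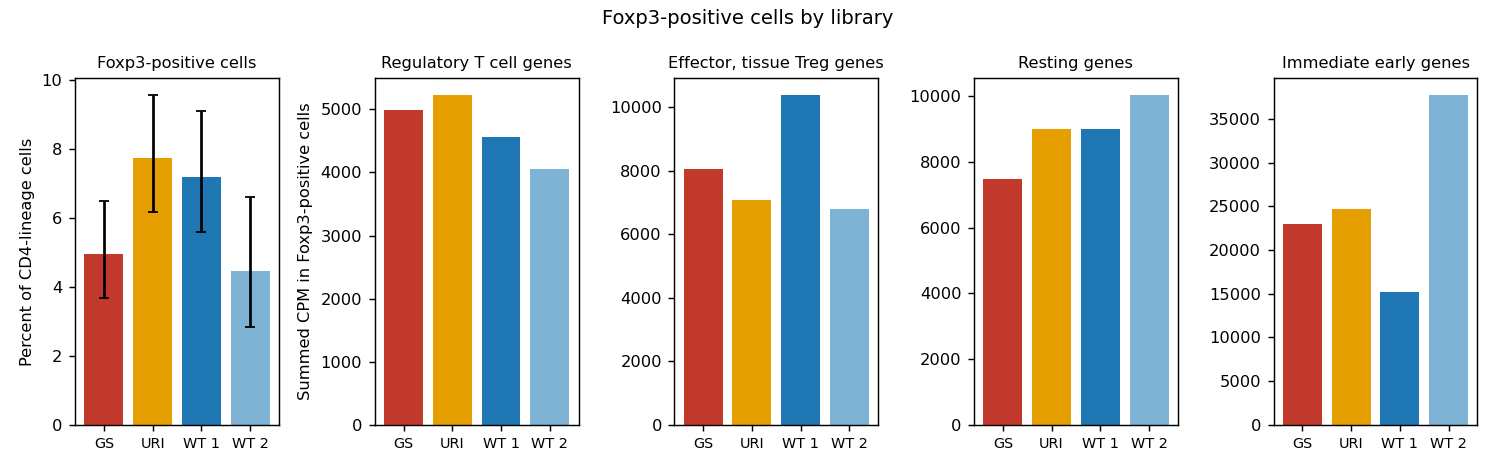
Share of Foxp3-positive cells among CD4-lineage cells (percent, with exact 95% binomial intervals) and summed CPM of the core, effector, resting and immediate-early lists in Foxp3-positive cells, for GS, URI, WT 1 and WT 2. GS and URI lie above both WT libraries on the core list and below both on the resting list, by little in URI, and on the immediate-early list they lie between the WT libraries at 15174 and 37740.0 CPM.

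A few genes with large differences that were not called are named after their values were seen, and single cells held much of the Gzma and Prf1 counts. Gzma, the protease granzyme A of cytotoxic cells, had 108 UMIs in 4 GS cells and 74 UMIs in 9 URI cells, against 5 UMIs in 3 WT 1 cells and 10 UMIs in 1 WT 2 cell. Of these, 58 lay in 1 GS cell and 64 in 1 URI cell. Its log2 difference from WT was 3.19 (SE 0.68) in GS and 1.87 (SE 0.70) in URI, with edgeR adjusted p of 1.00 for both, and the GS interaction had a log2 value of 4.41 and an adjusted p of 0.0857. Prf1 (perforin) had 27 UMIs in GS and 44 in URI, against 1 in WT 1 and 3 in WT 2, with 31 of those of URI in 1 cell. Rgs16, a regulator of G protein signalling on the core list, had 5 UMIs in 3 GS cells and 106 UMIs in 24 URI cells, against 7 UMIs in 5 WT 1 cells and 7 UMIs in 4 WT 2 cells. In URI its log2 difference from WT was 2.57 (SE 0.62, edgeR adjusted p = 1.00), and at most 24 of its UMIs lay in 1 cell.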

How the data were processed

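Mouse liver CD45+ cells were profiled with a fixed-RNA probe kit, per the labels' protocols. Reads were processed by the authors with Cell Ranger 8.0.0 on mm10, per the submitters' processing notes, and the deposited matrices hold raw UMI counts for 32344 genes. The 4 libraries held 24041049 to 51920505 UMIs and 267215 to 401184 barcodes, and kept cells held 93.9 to 95.6% of the UMIs. The 59 deprecated probe rows were left out. Counts were summed per library and cell set and tested with edgeR 4.0.16 (quasi-likelihood, TMM scaling, low-count filter, Benjamini-Hochberg threshold 0.05) in R 4.3.3, with the library as a block for Foxp3-positive against Foxp3-negative cells (3 residual degrees of freedom). DESeq2 1.42.0 was an alternative. The block pairs the 2 sums that come from the same pool of mice. Intervals for shares are exact (Clopper-Pearson, 95%). The top 5% of Scrublet scores per library were marked as doublets (scanpy 1.11.5), since its automatic threshold marked 4.64, 4.79 and 4.68% of cells in GS, URI and WT 2 but 0% in WT 1; of the Foxp3-positive cells, 7 (2.87%) were marked, and none was removed from the main results. The fits were tested on simulated data. Of 335 list genes, 334 were found; some members counted in the lists are not reported here by name. Named genes were the 12 largest rises and falls among called genes at a mean of at least 20 CPM with 1 direction in all 4 libraries, and list members. The cells and gene lists were chosen with earlier results of these data known. Promoters came from RefSeq, GRCm38.p6; Ikzf2 and Lrrc32 have no entry in the table used.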

Additional observations from a re-analysis of the deposited data

Results flagged for a closer look

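Foxp3 was found in cells gated as CD8 T cells (at least 2 Cd8a and Cd8b1 UMIs), outside the cells of the report and above the level in B cells and natural killer cells. The shares with a Foxp3 UMI were 1.08% of 1480 cells in GS, 1.60% of 1376 in URI, 1.55% of 1809 in WT 1 and 1.62% of 680 in WT 2, with medians of 5411.5, 6548, 4851 and 3751.5 UMIs per cell. The 77 cells concerned carried at least 2 of the markers Ctla4, Ikzf2 and Il2ra in 58.4%, against 3.97 to 6.25% of all CD8 T cells in the 4 libraries. They carried Cd4 in 61.0%, against 9.07% of the 5268 CD8 T cells without Foxp3. Their median depth was 8650 UMIs, against 5226 in CD8 T cells without Foxp3, and 6.49% against 4.52% were marked as doublets. The part of doublets in these values was not tested.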

How the results depend on the processing

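Of 398 values of 25 named genes over 16 alternatives, 390 kept their direction and their side of the threshold, 8 kept the direction but were no longer called, and none reversed. These 25 were the 12 largest rises, the 12 largest falls and Il2ra, all called in the main fit, so the count does not speak for other list genes. Il2rb and Cxcr3, not called in the main fit, were called higher in cells without Zbtb16 and Zfp683 and lower in cells without Ccr7. Against 484 genes higher and 218 lower in Foxp3-positive cells, cells without Ccr7 gave 245 higher, thinned cells 243 and 116, DESeq2 128 lower, no filter on low counts 387 lower, and cells under 50 UMIs of the MHC class II, neutrophil and cell cycle lists 351 lower; the restrictions on Ccr7 and on these lists were chosen after the data were seen. Leaving out 1 library gave 165 to 503 higher and 73 to 261 lower. Without the library block 225 were higher and 75 lower, 222 and 74 of them among the main calls. Without the low-count filter 542 genes were called higher, so the share higher among calls was 58.3% against 68.9%. No filter gave 2 genes higher and 10 lower for GS against WT, and 2 and 13 for URI against WT. For the difference between Foxp3-positive and Foxp3-negative cells, the GS counts were 9 higher and 13 lower with RLE scaling and likewise with no filter, 2 and 1 at 2 or more Foxp3 UMIs, 3 and 0 thinned, and 5 and 8 without doublets. The URI counts were 7 and 15 with RLE scaling, 7 and 14 with no filter, 9 and 13 at 2 or more Foxp3 UMIs, 1 and 3 without doublets, and 0 and 1 with DESeq2. The cause was not tested. At 2 or more Foxp3 UMIs the share of kept cells was 0.484% in GS, 0.671% in URI, 0.578% in WT 1 and 0.268% in WT 2, and after thinning 0.521%, 0.680%, 0.697% and 0.209%. Of CD4-lineage cells the shares were 3.49%, 5.72%, 5.06% and 2.77% at 2 or more Foxp3 UMIs, and 2.42%, 5.06%, 5.34% and 1.82% after thinning. No paired analysis was possible between genotypes because GS and URI have 1 library each, so that only replicate number 1 is shared. Leaving out a WT library left the genotype fits no residual degrees of freedom, and the planned tests of splits within the Foxp3-positive cells were not run because some sums held under 20 cells.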
